A study of Homo sapiens with 16 samples.

Results

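Wild-type LX-2 cells exposed to 100 ng/mL of TWEAK for 2 h were compared, by sequencing of their poly(A) RNA, with wild-type LX-2 cells that received PBS, the vehicle. LX-2 cells derive from human hepatic stellate cells and were immortalised to grow in culture. The comparison used 8 of the 16 libraries of the series, 4 per group, and every gene of the deposited table that passed a filter on low counts, which left 16029 of 61806 genes. Both groups carried no edited allele, were grown in the same reduced-serum medium and were cultured for 24 h before the addition, so they differed by label in TWEAK alone. The other 8 libraries, also given PBS, come from a CRISPR/Cas9 knockout of Fn14alpha and one of total Fn14 (4 each). They entered the fit as a source of the spread between replicates, and they also counted in the filter and the scaling. With the 8 wild-type libraries alone, 15234 genes passed the filter. The labels call the libraries biological replicates and do not describe how cultures were kept apart. The p-values therefore measure only the spread between these samples, which may be technical. A line grown without other liver cells, sampled at 1 time point, limits what the groups can model.

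TWEAK, the product of TNFSF12, is a member of the TNF cytokine superfamily. It binds Fn14, a small receptor encoded by TNFRSF12A, whose cytoplasmic tail recruits TRAF adaptors and switches on the canonical and noncanonical branches of NF-kB signalling together with MAP kinases. Hepatic stellate cells store retinoids in the healthy liver and deposit fibrillar matrix once activated, and Fn14 is known to be raised in injured liver. The NF-kB targets, chemokines and TNF receptor family genes that such a signal raises are well known, so the values below dwell on the genes outside those groups, on the genes that fell, and on moderate changes.

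Marker genes were read to check the label of the cells. All 12 markers of activated stellate cells were detected above the filter. Of these, VIM and THY1 rose (by 0.75 ± 0.06 and 0.57 ± 0.06), COL3A1 fell and 9 did not pass, with a median log2 fold change of −0.08 over the list. Of 12 markers of quiescent stellate cells, 9 stayed under 1 FPKM (fragments scaled to exon length and library total) in all 8 libraries. The same held for 9 of 10 hepatocyte markers, 6 of 8 cholangiocyte markers, 9 of 10 endothelial markers and 9 of 10 leukocyte markers, and of these 3, 1, 1 and 1 were at 0 throughout. It held for 0 of the 12 activated markers, but ACTA2, PDGFRB and COL1A2 averaged only 2.83, 1.79 and 1.48 FPKM with vehicle. The filter itself was passed by 8 quiescent markers, with ECM1 at 27.6 FPKM, and by 1 hepatocyte, 4 cholangiocyte, 2 endothelial and 3 leukocyte markers. Summed over each list, the level with vehicle and with TWEAK ran from 2.3 to 2.7 and from 2.6 to 3.16 FPKM for hepatocytes, from 6.06 to 7 and from 6.2 to 6.88 for cholangiocytes, from 1.58 to 2.11 and from 1.61 to 1.83 for endothelium, and from 1.85 to 2.5 and from 1.76 to 2.29 for leukocytes. Library totals were 14273840 to 16888606 counts with vehicle and 13335919 to 15846385 with TWEAK. The first principal component of the 8 libraries held 33.97% of the variance and parted the groups. Vehicle replicate 4 lay apart on it at −36.06, against −12.95 to −11.48 for the other vehicle libraries and 14.41 to 22.91 with TWEAK. That library was also higher in cytosolic ribosomal protein mRNA (mean log2 CPM, counts scaled to library size, of 8.619 against 8.293 to 8.298 in the other vehicle libraries and 8.182 to 8.326 with TWEAK). Its mitochondrial mRNA was lower, at a mean log2 CPM of 10.8 against 11.07 to 11.39 with vehicle and 11.21 to 11.31 with TWEAK. Leaving it out gave 661 genes higher and 228 lower.

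Transcripts of 1101 of the 16029 genes (6.87%) were called changed after 2 h of TWEAK, at an edgeR quasi-likelihood adjusted p under 0.05. Of these, 773 rose (4.82% of those tested) and 328 fell (2.05%). A log2 fold change of at least 1 in size was seen in 146 of them (0.911%), 119 higher and 27 lower. Most changes were smaller: 354 genes rose and 169 fell by 0.25 to 0.5 on the log2 scale, and 246 rose and 117 fell by 0.5 to 1. Another 54 rose and 15 fell by less than 0.25. The largest increases were in genes with little starting transcript, since the median vehicle level of genes that rose by at least 2 was 0.268 FPKM, against 8.88 FPKM for those that rose by 0.25 to 0.5.

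**Figure D1:**
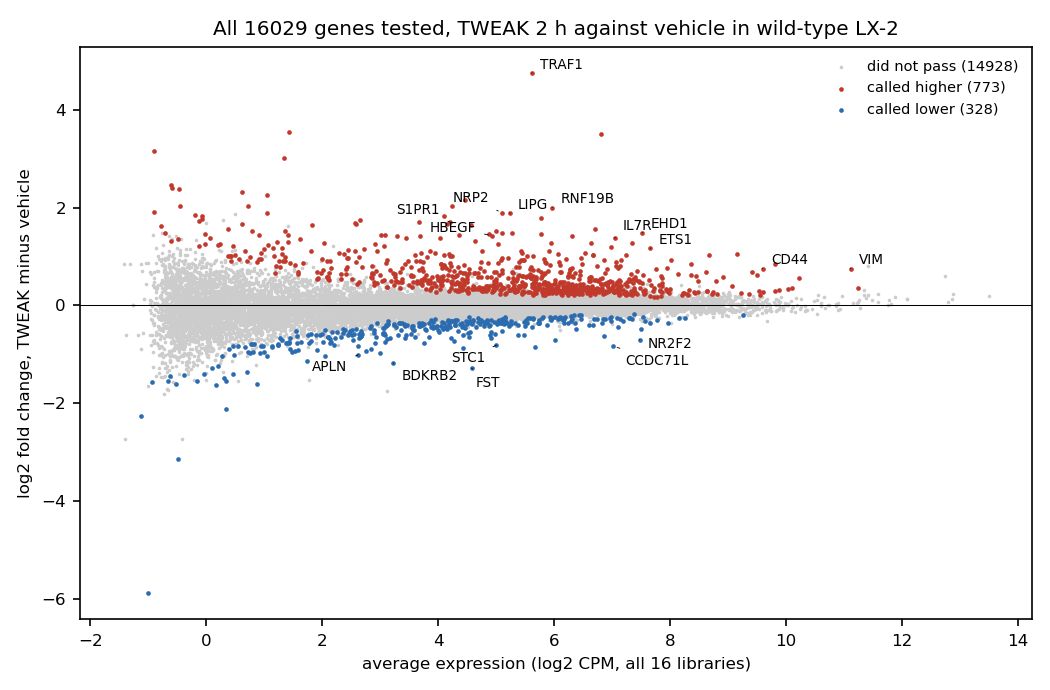
Log2 fold change of each of the 16029 genes tested (TWEAK minus vehicle, y axis) against its average expression in log2 CPM (x axis), with genes called higher in red (773), called lower in blue (328) and the others in grey. The scatter widens at low expression, and at moderate and high expression most called genes lie within 1 log2 unit of 0.

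The split between increases and decreases rested on the scaling. Library totals in place of the trimmed mean of M values (TMM) gave 586 genes higher and 750 lower, so the share of calls that were increases went from 70.2% to 43.9%. The median log2 fold change of all genes was −0.01 with TMM and −0.07 with library totals. FPKM are scaled to library totals, so by FPKM all 4 TWEAK libraries lay below all 4 vehicle libraries in 1862 genes (11.6%) and above them in 920 (5.74%). Without TWEAK replicate 3 the fit called 576 genes higher and 183 lower. Changes that did not turn on such choices were counted as well: 619 genes (3.86%) kept their call and direction in all 16 alternative settings, 504 higher (3.14%) and 115 lower (0.717%). Of the called genes in the 0.25 to 0.5 band, 192 that rose and 43 that fell did so. In the 0.5 to 1 band these were 210 and 62. The genes described below belong to the 619 unless the text says otherwise. For most of them the naming rule also required groups that do not overlap by FPKM, so groups apart are not a further result. Where a percentage called is given for a gene list below, its background is 6.87% of all genes tested. The lists were chosen with earlier results of these data known, so a share above that background is a description and not a test.

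**Figure D2:**
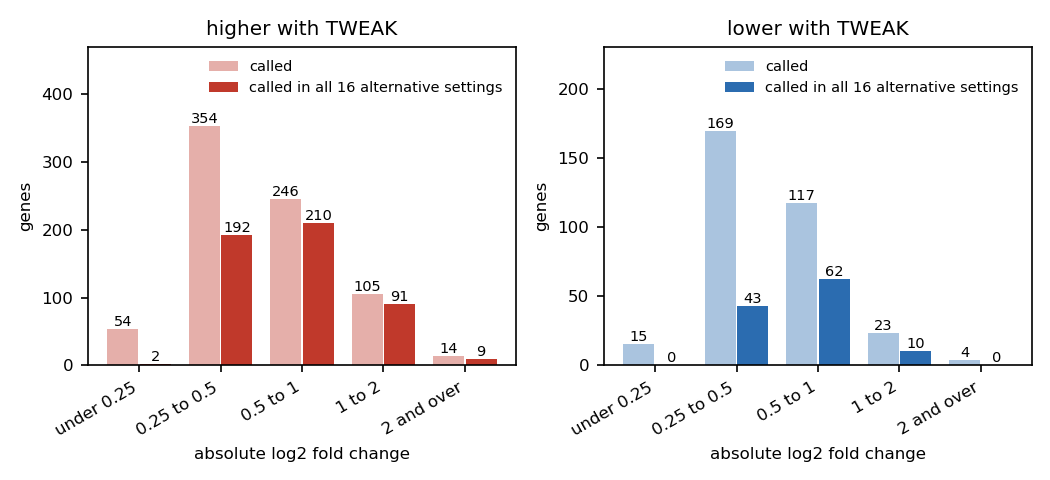
Genes called higher (left) and lower (right) by the size of their log2 fold change, with pale bars for all calls and dark bars for calls kept in all 16 alternative settings. Most calls lie between 0.25 and 1, and the pale and dark bars are closest among increases of 0.5 to 2.

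Genes of the textbook NF-kB response rose often, in 3 lists chosen with earlier results of these data known. The lists are short, so they could hold only a small part of all increases whatever their genes did. NF-kB targets, cytokines and chemokines, and TNF family and NF-kB signalling genes together have 105 tested members, of which 57 rose. They made up 7.374% of the 773 increases, against 0.6551% of all genes tested, and none fell by edgeR (8 were lower at an unadjusted p under 0.05, and 0 and 1 were called lower by DESeq2 and limma voom). By the annotation in the deposited table, 32.73% of the genes that rose and 25.61% of those that fell were placed at the plasma membrane, against 19.17% of all genes tested. Terms of cell migration were attached to 11.77% of the increases and 8.232% of the decreases, against 4.673% of all. Terms of apoptosis were attached to 15.27% and 10.06%, against 7.574%. Terms of inflammation were found for 9.314% of the genes that rose and 1.829% of those that fell, against 2.34% of all. Terms naming NF-kappaB were attached to 5.951% and 3.049%, against 2.277%. The extracellular region or space was given for 15.39% and 12.8%, against 8.416%, and DNA-binding transcription factor activity for 9.444% and 8.232%, against 6.937%. GTPase activators and exchange factors made up 3.881% and 1.829%, against 2.446%. Ubiquitin ligases and transferases stayed at the background, with 3.493% and 3.963%, against 3.606%. These shares are descriptions with no test. Protein-coding genes made up 93.66% of the increases and 91.16% of the decreases, against 81.79% of all genes tested. Genes that rose spanned a median of 43551 bases in the genome, against 27340 for genes that fell and 27739 for all.

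**Figure D3:**
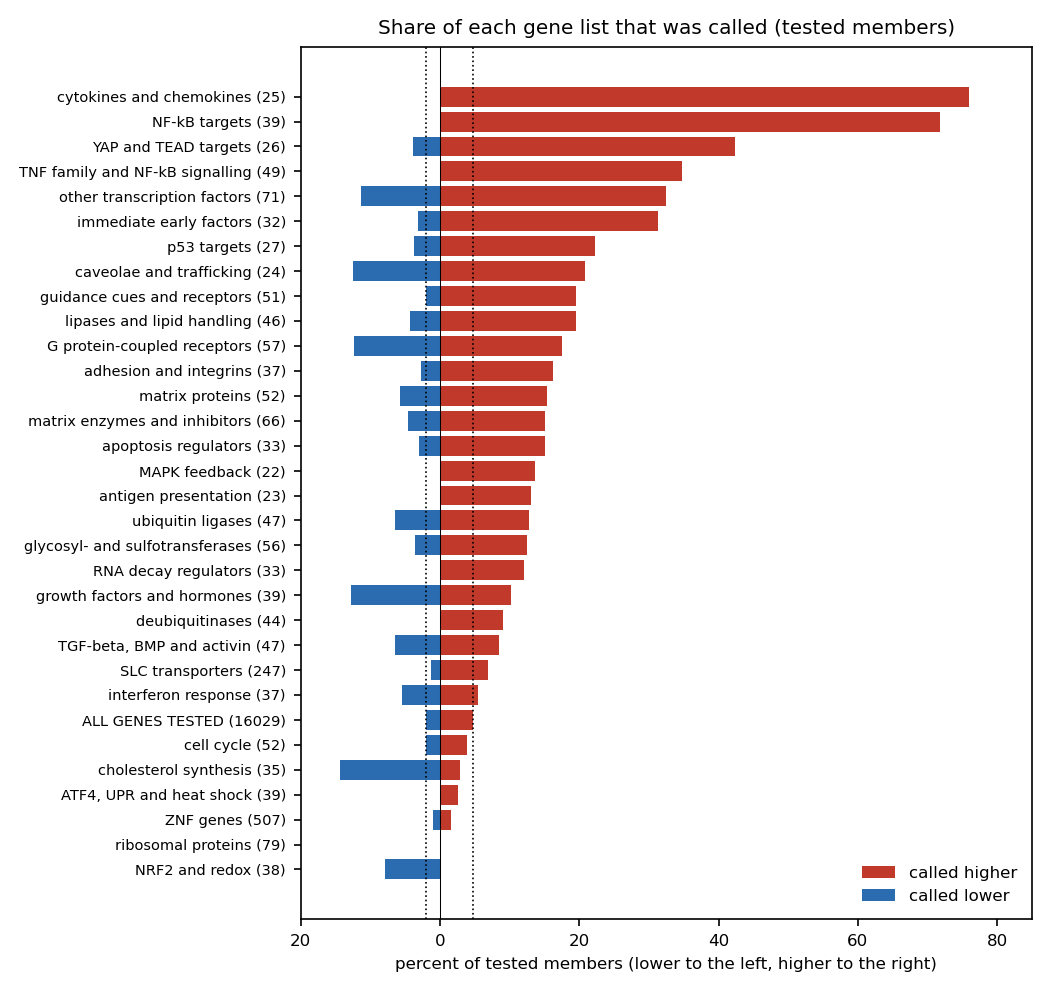
Percent of the tested members of each gene list (number in brackets) that were called higher (red, to the right) or lower (blue, to the left), with dotted lines at the shares of all genes tested (4.82% and 2.05%). Beside the NF-kB and cytokine lists, transcription factors, G protein-coupled receptors and trafficking genes have bars on both sides. The lists were chosen with earlier results of these data known.

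Promoter sequences were read to see how far the kappaB motif reached beyond those lists, which were chosen with earlier results of these data known. RefSeq promoters (build GRCh38.p14, 250 bases before to 50 after the start) matched 11362 of the genes tested by symbol. The kappaB motif GGGA, any base, TTTCC, read on either strand, stood in 68 of them (0.599%). It stood in 26 of 586 promoters of genes that rose (4.44%) and in 1 of 243 of genes that fell (0.412%). Among genes that rose, it was in 11 of 44 promoters of the NF-kB, cytokine and TNF family lists (25%) and in 15 of 542 promoters outside them (2.77%). Outside those lists it stood in 4 of 58 promoters of genes that rose by at least 1 and in 7 of 328 of genes that rose by less than 0.5 (6.90% and 2.13%). The AP-1 motif TGANTCA stood in 4.75% of all promoters, 5.63% of those that rose and 6.17% of those that fell. Among genes that rose, it was in 6 of 44 promoters of the 3 lists (13.64%) and in 27 of 542 outside them (4.98%). The EGR motif GCGTGGGCG stood in 1.36%, 1.71% and 1.23%. The stretches below are upstream matches of immune signalling and surface genes outside the 3 lists that rose in every setting, shown because they hold the same site as classical targets. They were chosen for that match after the values had been seen. NFKB1 is given for comparison, each sequence is on the gene's strand, 5′ to 3′, and capitals mark the match, which reads as its reverse complement in GBP4, IFIH1, IFNGR2 and PANX1.
GBP4, chr1:89198948-89199017, minus strand: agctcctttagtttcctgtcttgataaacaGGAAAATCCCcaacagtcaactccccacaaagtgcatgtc
JAK3, chr19:17847983-17848042, minus strand: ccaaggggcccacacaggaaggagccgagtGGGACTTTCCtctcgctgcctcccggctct
IFIH1, chr2:162318721-162318790, minus strand: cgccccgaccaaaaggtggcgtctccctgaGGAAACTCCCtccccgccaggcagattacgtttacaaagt
IFNGR2, chr21:33403284-33403353, plus strand: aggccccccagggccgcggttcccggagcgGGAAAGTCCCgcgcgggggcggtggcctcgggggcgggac
TAP1, chr6:32853737-32853806, minus strand: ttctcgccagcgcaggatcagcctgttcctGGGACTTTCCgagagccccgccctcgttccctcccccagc
TICAM1, chr19:4831793-4831862, minus strand: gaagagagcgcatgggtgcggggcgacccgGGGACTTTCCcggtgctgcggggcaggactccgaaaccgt
PANX1, chr11:94128711-94128780, plus strand: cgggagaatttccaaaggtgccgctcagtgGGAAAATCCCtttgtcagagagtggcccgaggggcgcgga
IL27RA, chr19:14031664-14031733, plus strand: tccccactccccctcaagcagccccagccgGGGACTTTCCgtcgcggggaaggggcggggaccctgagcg
NFKB1, chr4:102501280-102501349, plus strand: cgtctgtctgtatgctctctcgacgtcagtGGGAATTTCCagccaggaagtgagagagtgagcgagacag
A match is a description of letters and does not show that a factor binds there.

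The genes behind these stretches changed by very different amounts. IFNGR2, the signalling chain of the interferon gamma receptor, read 21.5, 22.9, 19.4 and 21.4 FPKM with vehicle and 30.7, 34.7, 32.9 and 34.7 FPKM with TWEAK. All 4 TWEAK libraries lay above the vehicle libraries (log2 fold change 0.70 ± 0.07 SE, edgeR adjusted p = 5.56e-08). TAP1, a subunit of the peptide transporter of antigen presentation, rose from 11.1 ± 1.16 to 16.8 ± 0.917 FPKM (SD, n = 4; 0.66 ± 0.08, edgeR adjusted p = 1.51e-06). TICAM1, an adaptor of Toll-like receptors, rose by 0.61, the channel gene PANX1 by 0.50 and the cytokine receptor IL27RA by 0.48 on the log2 scale. The cytosolic RNA sensor IFIH1 was scarce, at 0.44, 0.39, 0.64 and 0.37 FPKM with vehicle and 1.01, 1.23, 0.7 and 1.08 FPKM with TWEAK. GBP4, an interferon-inducible GTPase, read 0.15, 0.13, 0.15 and 0.07 FPKM and then 0.44, 0.8, 0.43 and 0.74 FPKM, so its log2 fold change of 2.32 ± 0.27 rests on very low levels. The kinase gene JAK3 was as low, at 0.28 ± 0.0829 to 0.768 ± 0.116 FPKM. Most genes of the interferon programme did not pass: of 37 interferon response genes tested, 2 rose and 2 fell, with a median log2 fold change of −0.08 (1 and 0 in every setting). These are 10.81% called, against 6.87% of all genes tested. Of 23 antigen presentation genes 3 rose, 2 in every setting (13.04% called).

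Receptors at the cell surface moved in both directions. Of 57 tested G protein-coupled receptors (29.82% called), 10 rose, all in every setting, and 7 fell, 3 in every setting (4 fell without vehicle replicate 4). S1PR1 (ENSG00000170989, chromosome 1, 101236865 to 101243713, plus strand), a receptor for sphingosine 1-phosphate, read 1.92, 2.6, 2.58 and 2.53 FPKM with vehicle and 8.04, 6.97, 7.84 and 7.28 FPKM with TWEAK. Its groups were far apart (1.70 ± 0.10, edgeR adjusted p = 1.47e-11). S1PR3, another receptor for the same lipid, read 3.19, 3.32, 3.2 and 2.57 FPKM with vehicle and 6.35, 6.36, 6.2 and 5.79 FPKM with TWEAK and rose by 1.07 ± 0.09. S1PR2, the third of these receptors, rose by 0.97 ± 0.18. The prostaglandin E2 receptor gene PTGER4 rose by 1.06 ± 0.12, and this gene and S1PR2 are named after their values were seen. Adhesion receptors rose too, ADGRG1 from 2.08 ± 0.315 to 4.005 ± 0.404 FPKM and ADGRE5 from 14.9 ± 0.944 to 23.9 ± 1.7 FPKM.

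The receptor genes that fell included those for bradykinin, thrombin and somatostatin. BDKRB2 (ENSG00000168398, chromosome 14, 96204679 to 96244166, plus strand), the main bradykinin receptor, read 2.67, 2.63, 2.64 and 2.66 FPKM with vehicle and 1.06, 1.21, 0.98 and 1.24 FPKM with TWEAK. The vehicle libraries were almost identical, and the highest TWEAK library lay far below the lowest of them (−1.18 ± 0.11, edgeR adjusted p = 3.48e-08). F2R, the thrombin receptor PAR1, read 6.26, 5.44, 5.81 and 5.83 FPKM with vehicle and 3.64, 4.19, 3.13 and 3.42 FPKM with TWEAK and fell by 0.64 on the log2 scale (SE 0.11, edgeR adjusted p = 1.97e-04). The somatostatin receptor gene SSTR1 went from 4.76 ± 0.437 to 2.85 ± 0.765 FPKM (−0.67 ± 0.13). AGTR1, the angiotensin II receptor, was called lower as well (−0.65 ± 0.16), but not in every setting, since it did not pass without vehicle replicate 4 or TWEAK replicate 1.

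Other surface genes were mostly higher. IL7R, a chain of the receptors for IL-7 and TSLP, read 16.6, 18.6, 16.5 and 15.6 FPKM with vehicle and 43.5, 41.05, 43.4 and 40.03 FPKM with TWEAK. This was one of the clearest changes outside the NF-kB lists (1.38 ± 0.08, edgeR adjusted p = 3.30e-12). NRP2, a co-receptor for semaphorins and VEGF-C, read 1.75, 1.9, 1.75 and 1.39 FPKM with vehicle and 5.47, 6.64, 5.9 and 6.24 FPKM with TWEAK, and VEGFC, that growth factor, rose alongside from 21.7 ± 0.876 to 38.7 ± 3.46 FPKM. LRIG1, a negative regulator of receptor tyrosine kinases, rose 3.12-fold. EPHA2, a receptor of ephrins, rose by 0.77 ± 0.07 and the ephrin gene EFNB2 by 0.47 ± 0.09. The hyaluronan receptor gene CD44 was already at 71.2, 72.8, 68.8 and 63.5 FPKM with vehicle and reached 112, 109, 115 and 109.7 FPKM. CD47, which signals to phagocytes, read 10.5, 10.8, 10.1 and 11.1 FPKM with vehicle and 16.4, 17.1, 16.5 and 16.4 FPKM with TWEAK. Of 51 guidance cues and receptors (21.57% called) 10 rose and 1 fell (6 and 1 in every setting). The one that fell was NTN4, a secreted netrin, at 8.78, 8.23, 9.17 and 9.3 FPKM with vehicle and 6.56, 5.38, 5.54 and 5.26 FPKM with TWEAK (−0.58 ± 0.08, edgeR adjusted p = 3.44e-05). Of 37 adhesion genes (18.92% called) 6 rose and 1 fell (4 and 0 in every setting).

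Secreted factors split as well. Among 39 growth factors and hormones (23.08% called) 4 rose, all in every setting, and 5 fell, 3 in every setting and also 3 without vehicle replicate 1, 2 or 4 or TWEAK replicate 2 or 4. HBEGF, a ligand of the EGF receptor, read 7.15, 6.71, 7.45 and 7.89 FPKM with vehicle and 20.2, 16.5, 20.4 and 18.1 FPKM with TWEAK and rose by 1.42 ± 0.09 (edgeR adjusted p = 2.32e-11). Genes of secreted hormones and peptides were among those that fell. STC1 and STC2 encode the stanniocalcins, glycoproteins known for calcium and phosphate handling. STC1 read 15.9, 16.5, 15.2 and 12.7 FPKM with vehicle and 7.9, 8.54, 8.52 and 7.91 FPKM with TWEAK and STC2 read 10.7, 11.02, 10.1 and 9.75 FPKM with vehicle and 6.37, 5.85, 6.61 and 5.45 FPKM with TWEAK. Neither gene's groups overlapped (−0.82 ± 0.09 and −0.72 ± 0.07, edgeR adjusted p = 7.20e-07 and 1.27e-07). APLN, the ligand of the apelin receptor, read 2.52, 2.19, 2.34 and 1.74 FPKM with vehicle and 1.11, 0.8, 1.04 and 1.23 FPKM with TWEAK (−1.01 ± 0.16, edgeR adjusted p = 1.14e-04). The KIT ligand gene KITLG was called lower (−0.39 ± 0.11) but not without vehicle replicate 1, 2 or 4 or TWEAK replicate 2 or 4.

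Activin and its antagonist moved in opposite directions. INHBA, the subunit of activin A, read 4.96, 4.97, 4.83 and 5.09 FPKM with vehicle and 10.1, 8.14, 9.92 and 8.16 FPKM with TWEAK (0.93 ± 0.08, edgeR adjusted p = 5.07e-09). FST (ENSG00000134363, chromosome 5, 53480626 to 53487134, plus strand), whose product follistatin binds activin, read 14.9, 14.3, 13.98 and 18.9 FPKM with vehicle and 6.99, 5.69, 6.35 and 5.4 FPKM with TWEAK. It was lower in every TWEAK library than in any vehicle library (−1.29 ± 0.11, edgeR adjusted p = 9.76e-09). SMAD3, a transducer of TGF-beta and activin signals, rose from 16.7 ± 1.304 to 24.8 ± 0.721 FPKM (0.63 ± 0.06). Of 47 TGF-beta, BMP and activin genes (14.89% called), 4 rose and 3 fell, of which 2 and 1 in every setting (1 fell without TWEAK replicate 4). The median log2 fold change of the list was 0.02. JAG1, a Notch ligand, rose from 3.51 ± 0.11 to 6.55 ± 0.202 FPKM (0.96 ± 0.07) and the receptor gene NOTCH2 by 0.49 ± 0.12. These are 2 of 3 genes that rose among 36 of the Wnt, Notch and Hedgehog pathways (11.11% called).

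A list of transcription factors outside the NF-kB and immediate early families gave 23 increases and 8 decreases among 71 tested (43.66% called). In every setting these were 18 and 4 (5 fell without TWEAK replicate 3). The members were chosen with earlier results of these data known, so that share does not stand for transcription factors at large. By the deposited annotation, 100 of 1112 genes with DNA-binding transcription factor activity were called (8.993%). ETS1 (ENSG00000134954, chromosome 11, 128458761 to 128587558, minus strand), a factor active in angiogenesis and matrix turnover, read 20.6, 20.5, 18.9 and 18.5 FPKM with vehicle and 46.5, 40.9, 44.5 and 37.4 FPKM with TWEAK (1.17 ± 0.07, edgeR adjusted p = 2.28e-11). Its relatives ETS2 and FLI1 rose by 0.67 ± 0.06 and 0.63 ± 0.09. FOXC2 rose by 0.79 ± 0.10, and the factors ZEB1 and ZEB2, known for repressing epithelial genes, rose by 0.60 ± 0.09 and 0.60 ± 0.09. HIVEP1, HIVEP2 and HIVEP3, large zinc finger proteins that bind kappaB-like sites, all rose, by 0.89 ± 0.14, 0.67 ± 0.14 and 0.65 ± 0.15. The ZEB and HIVEP genes are named after their values were seen. Of 19 circadian genes tested 2 rose and 17 did not pass (10.53% called). The repressor gene BHLHE40 rose from 11.1 ± 0.842 to 19.4 ± 0.528 FPKM and CLOCK, a core clock activator, by 0.36 ± 0.09. ARNTL2, a clock-related factor outside that list, rose from 19.7 ± 0.898 to 36.01 ± 0.901 FPKM.

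Among the factors that fell were both COUP-TF nuclear receptors. NR2F2 (COUP-TFII, ENSG00000185551, chromosome 15, 96325938 to 96340263, plus strand) read 21.6, 23.03, 22.96 and 25.1 FPKM with vehicle and 15.8, 12, 14.98 and 11.8 FPKM with TWEAK, and NR2F1 (COUP-TFI) read 8.92, 9.38, 9.51 and 9.12 FPKM with vehicle and 6.82, 6.04, 6.78 and 5.73 FPKM with TWEAK. In neither did a TWEAK library reach the lowest vehicle library (−0.71 ± 0.09 and −0.48 ± 0.07, edgeR adjusted p = 4.57e-06 and 7.89e-05). KLF9, a target of glucocorticoid and thyroid hormone, read 6.41, 7.13, 5.81 and 6.86 FPKM with vehicle and 3.97, 4.75, 3.25 and 3.91 FPKM with TWEAK (−0.67 ± 0.12, edgeR adjusted p = 7.56e-04). SNAI2, a repressor of epithelial genes, fell less, from 23.2 ± 1.09 to 17.2 ± 0.6199 FPKM (−0.37 ± 0.06). ARID5B fell by 0.54, HOXB5 by 0.65 and MXD3, a MAX partner, by 0.55 on the log2 scale. Zinc finger genes named ZNF, the largest family of factors, hardly moved as a group: of 507 tested (2.564% called), 8 rose and 5 fell, with a median of −0.02. In every setting these were 5 and 0, and none fell without vehicle replicate 4. ZNF267 was an exception, with 5.17, 4.81, 4.68 and 4.71 FPKM with vehicle and 9.54, 9.45, 8.86 and 8.76 FPKM with TWEAK.

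The AP-1 family and other immediate early factors were above vehicle at 2 h in part. Of 32 tested (34.38% called), 10 rose and 1 fell (7 and 1 in every setting). FOSL1 went from 141 ± 17.7 to 244 ± 18.7 FPKM, JUNB from 34.6 ± 2.35 to 58.8 ± 2.21 FPKM, FOSL2 from 16.4 ± 2.11 to 22.3 ± 1.01 FPKM and MYC from 20.4 ± 1.42 to 26.8 ± 1.996 FPKM. Of 26 targets of YAP and TEAD (46.15% called), 11 rose and 1 fell (8 and 0 in every setting). Among them CCN1, a matricellular protein gene, rose from 155 ± 8.77 to 267 ± 33.2 FPKM and the kinase gene NUAK2 from 3.58 ± 0.479 to 8.87 ± 0.708 FPKM.

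The other genes that fell are given mostly one by one. CCDC71L (ENSG00000253276, chromosome 7, 106654360 to 106661158, minus strand) was the most abundant gene that fell by more than 0.8 and kept its call in every setting, at 32.2, 31.5, 31.3 and 34.4 FPKM with vehicle and 16.1, 19.8, 15.7 and 18.2 FPKM with TWEAK. No TWEAK library came near the vehicle range (−0.83 ± 0.07, edgeR adjusted p = 1.73e-08). EMP1, a tetraspan membrane protein gene, read 21.7, 21.9, 19.6 and 20.4 FPKM with vehicle and 13.9, 11.7, 13.6 and 12.9 FPKM with TWEAK (−0.62 ± 0.06). MEST, an imprinted gene, went from 5.89 ± 0.213 to 3.12 ± 0.388 FPKM and the transmembrane protein gene TMEFF2 from 3.11 ± 0.334 to 1.75 ± 0.183 FPKM. CAVIN2, a coat protein of caveolae, read 2.48, 3.24, 3.23 and 2.87 FPKM with vehicle and 1.36, 1.17, 1.63 and 1.77 FPKM with TWEAK (−0.94 ± 0.15, edgeR adjusted p = 1.41e-04). SYTL2, an effector of RAB27 in vesicle docking, read 2.74, 2.76, 2.51 and 2.76 FPKM with vehicle and 1.26, 1.59, 1.42 and 1.39 FPKM with TWEAK, and RAB27B itself went from 2.23 ± 0.194 to 1.35 ± 0.109 FPKM, so a RAB27 and one of its effectors fell together (−0.87 ± 0.10 and −0.67 ± 0.13).

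**Figure D4:**
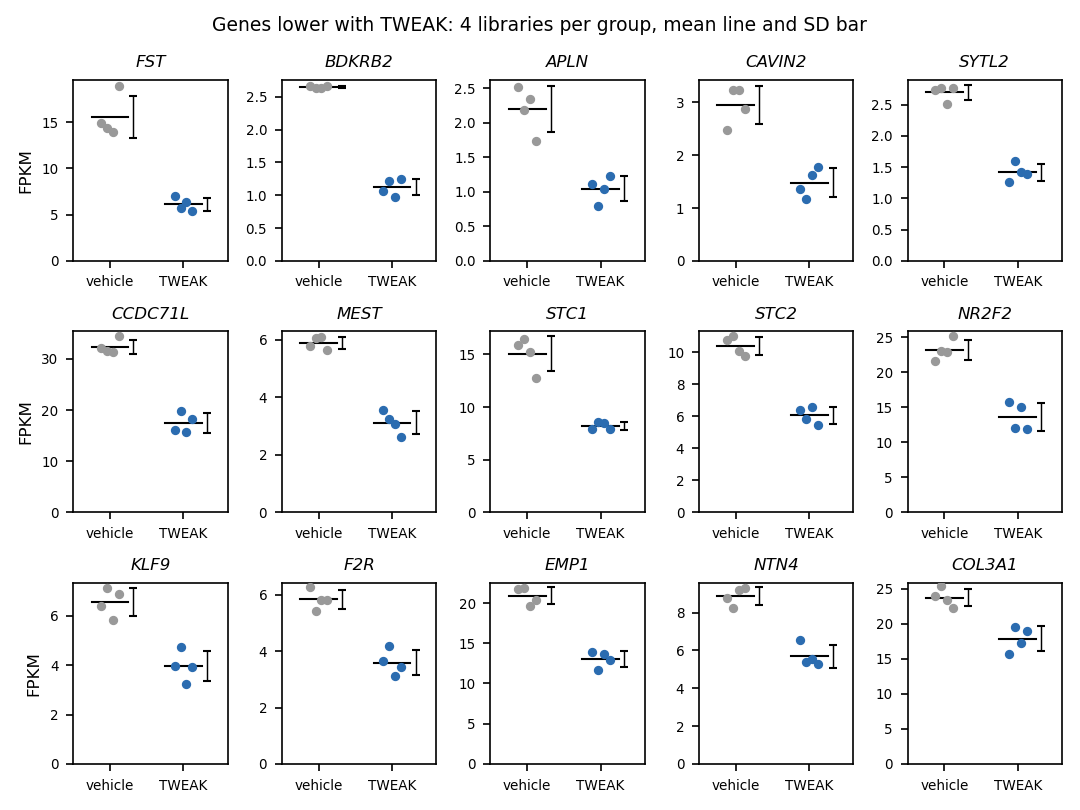
FPKM of 15 genes that fell, with 1 point per library (4 vehicle in grey, 4 TWEAK in blue), a line at the mean, a bar for the SD and an own linear axis from 0 for each gene. In each panel the highest TWEAK library lies below the lowest vehicle library, as the rule for named genes required. By FPKM 11.6% of all genes tested lay so.

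Smaller decreases covered signalling, metabolic and matrix genes. DDIT4, an inhibitor of mTORC1 induced by stress, went from 9.68 ± 0.152 to 6.35 ± 1.17 FPKM (−0.55 ± 0.11). ARG2, the mitochondrial arginase, fell by 0.56 on the log2 scale. SLC7A2, an importer of arginine, rose from 2.49 ± 0.402 to 6.66 ± 0.243 FPKM. The kinase genes PTK2B and TNIK fell by 0.65 and 0.61, and the cell adhesion gene AMIGO2 by 0.61. Among decreases under 0.5, DNAJB4, a heat shock co-chaperone, read 25, 25.5, 23.7 and 29.1 FPKM with vehicle and 19.9, 17.4, 18.1 and 17.4 FPKM with TWEAK, and LRRC17, a secreted leucine-rich repeat protein gene, read 50.3, 51.9, 51.2 and 59.8 FPKM with vehicle and 41.7, 40.1, 34.2 and 37.9 FPKM with TWEAK. The groups of both genes were apart, though the change was modest (−0.45 ± 0.08 and −0.41 ± 0.08). CDKN2C, the cyclin-dependent kinase inhibitor p18, went from 28.5 ± 2.08 to 21.4 ± 1.18 FPKM. PDP1, which activates pyruvate dehydrogenase, and DSEL, which modifies dermatan sulfate, fell by 0.44 and 0.43.

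Several genes of the cytoskeleton and of membrane traffic rose. FGD6, an exchange factor, read 1.42, 1.27, 1.17 and 0.87 FPKM with vehicle and 3.63, 4.21, 4.31 and 4.01 FPKM with TWEAK. ARHGAP31, which inactivates CDC42 and RAC1, read 4.16, 4.6, 3.85 and 2.73 FPKM with vehicle and 6.89, 7.65, 7.96 and 7.05 FPKM with TWEAK (1.01 ± 0.13, edgeR adjusted p = 1.12e-05). The atypical GTPase gene RND1 rose by 1.08 ± 0.24 while RHOU, another atypical family member, fell by 0.71 on the log2 scale (SE 0.16). Both were scarce and are named after their values were seen. RND1 read 0.39, 0.37, 0.66 and 0.28 FPKM with vehicle and 0.84, 0.91, 0.67 and 1.06 FPKM with TWEAK, so its groups nearly touched. RHOU went from 1.57 ± 0.216 to 0.9225 ± 0.0492 FPKM. FMNL1, a formin, went from 6.81 ± 0.667 to 12.1 ± 0.602 FPKM. VIM, the intermediate filament gene of vimentin, was abundant throughout and read 372, 367, 394 and 379 FPKM with vehicle and 654, 589.8, 634 and 568 FPKM with TWEAK (0.75 ± 0.06, edgeR adjusted p = 3.38e-09). EHD1, an ATPase of endosomal recycling, read 19.4, 19.4, 18.4 and 16.6 FPKM with vehicle and 47.4, 47.6, 52.6 and 50.99 FPKM with TWEAK (1.49 ± 0.07, edgeR adjusted p = 7.09e-14), and its relative EHD4 rose by 0.55 ± 0.07. Of 24 caveolae and trafficking genes (33.33% called) 5 rose and 3 fell, all in every setting.

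Protein and RNA turnover genes gave a few strong increases. RNF19B (ENSG00000116514, chromosome 1, 32936445 to 32964809, minus strand), a RING-between-RING ubiquitin ligase, read 12.6, 14.6, 15.7 and 13.7 FPKM with vehicle and 54.9, 52.9, 54.7 and 55.1 FPKM with TWEAK. It had the smallest adjusted p outside the NF-kB lists (2.00 ± 0.07, edgeR adjusted p = 3.56e-16). RNF145, a ligase of the endoplasmic reticulum linked to sterol control, read 22.9, 23.04, 21.4 and 24.8 FPKM with vehicle and 41.4, 42.2, 42.8 and 43.1 FPKM with TWEAK (0.94 ± 0.06). TRIM47 rose from 1.82 ± 0.075 to 3.79 ± 0.301 FPKM and NEDD4L, which removes sodium channels from the membrane, from 3.17 ± 0.214 to 5.33 ± 0.314 FPKM. In all, 6 of 47 listed ubiquitin ligases rose, each in every setting, and 3 fell, none in every setting (19.15% called). That list was chosen with earlier results of these data known. By the deposited annotation, 40 of 578 ubiquitin ligases and transferases were called (6.92%), close to the 6.87% of all genes. Of 44 deubiquitinases 4 rose (OTUD4, USP31, STAMBPL1 and USP36, by 0.67, 0.66, 0.87 and 0.45), and none fell by edgeR, DESeq2 or limma voom, with 1 lower at an unadjusted p under 0.05. These are 9.091% called, close to the 6.87% of all genes. Among 33 regulators of RNA decay 4 rose: NOCT, a clock-linked phosphatase once described as a deadenylase, from 4.44 ± 0.494 to 7.34 ± 0.609 FPKM, ZFP36L1, which binds AU-rich elements, from 29.6 ± 2.03 to 41.2 ± 2.07 FPKM, the uridylyltransferase gene TUT7 from 6.07 ± 0.212 to 8.53 ± 0.549 FPKM, and the endonuclease gene ZC3H12A from 20.2 ± 2.96 to 26.4 ± 2.51 FPKM. None of that list fell by the same 3 tools or at an unadjusted p under 0.05, and 12.12% of it was called.

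Regulators of survival and of the cell cycle included both protective and death-promoting genes. CFLAR, an inhibitor of caspase-8, read 2.55, 2.7, 2.74 and 2.31 FPKM with vehicle and 5.16, 5.07, 5.28 and 4.82 FPKM with TWEAK (1.04 ± 0.06, edgeR adjusted p = 2.15e-11). BBC3, the BH3-only protein PUMA, rose as well, from 2.36 ± 0.272 to 3.56 ± 0.184 FPKM (0.64 ± 0.12). TNFRSF10B, a death receptor for TRAIL, read 47.3, 46.7, 42.5 and 33.4 FPKM with vehicle and 64.5, 71.5, 73.4 and 64.7 FPKM with TWEAK, and GADD45A, a growth arrest gene, went from 50.8 ± 6.16 to 85.1 ± 6.78 FPKM. These 3 are also p53 targets, of which 6 of 27 tested rose (each in every setting) and 1 fell, though not in every setting (25.93% called). CDK6, which drives cells through G1, read 7.62, 7.67, 7.22 and 5.69 FPKM with vehicle and 14.1, 13.1, 14.8 and 13.6 FPKM with TWEAK (1.04 ± 0.10, edgeR adjusted p = 4.86e-08). Of 52 cell cycle genes tested 2 rose and 1 fell (1 each in every setting), with a median of 0.02. These are 5.769% called, close to the 6.87% of all genes.

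Matrix genes and the enzymes that modify them moved in both directions. COL6A1, a chain of collagen VI, read 202, 196, 213 and 169 FPKM with vehicle and 237, 240, 242 and 239 FPKM with TWEAK and rose by 0.36 ± 0.06. Vehicle replicate 4 was the lowest of its group. COL5A2 rose by 0.29 ± 0.06, LAMB3 by 0.44 ± 0.07 and LAMA5, a laminin chain, by 0.64 ± 0.11. COL3A1, the fibrillar collagen III, read 23.9, 25.3, 23.4 and 22.3 FPKM with vehicle and 15.6, 19.5, 17.3 and 19.02 FPKM with TWEAK and fell by 0.35 on the log2 scale (SE 0.07, edgeR adjusted p = 0.0021). COL1A1, a chain of fibrillar collagen I, did not pass, with 133 ± 7.96 to 120.3 ± 2.497 FPKM (−0.09 ± 0.06, edgeR adjusted p = 0.394). Of 52 matrix proteins (21.15% called) 8 rose and 3 fell (4 and 2 in every setting, and 4 or 5 higher without vehicle replicate 3 or 4 or TWEAK replicate 2 or 3). Among 66 matrix enzymes and inhibitors (19.7% called) 10 rose and 3 fell (6 and 0 in every setting, 1 lower without vehicle replicate 4 or TWEAK replicate 2, 3 or 4). They included TIMP3, an inhibitor of metalloproteinases, at 1.19, 1.42, 1.17 and 0.85 FPKM with vehicle and 3.84, 3.16, 3.57 and 3.49 FPKM with TWEAK, and MMP19, at 3.57 ± 0.399 to 6.26 ± 0.375 FPKM.

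Enzymes that build glycans and handle lipids rose in part. ST6GALNAC5, a sialyltransferase, read 0.97, 0.93, 0.82 and 1 FPKM with vehicle and 2.95, 2.6, 3.04 and 3.04 FPKM with TWEAK, and ST3GAL1, another, went from 4.87 ± 0.616 to 9.35 ± 0.891 FPKM. CHST11, which sulfates chondroitin, rose by 0.90 ± 0.12 and the fucosyltransferase gene FUT4 by 0.59 ± 0.12. Of 56 such genes (16.07% called) 7 rose and 2 fell (6 and 1 in every setting). LIPG, endothelial lipase, read 2.05, 1.97, 1.77 and 2.03 FPKM with vehicle and 6.33, 7.57, 6.34 and 7.57 FPKM with TWEAK. ABCA1, which exports cholesterol to apolipoprotein A-I, read 10.9, 11.8, 10.5 and 9.38 FPKM with vehicle and 22.4, 24.4, 23.2 and 23.4 FPKM with TWEAK (1.19 ± 0.09, edgeR adjusted p = 4.08e-10), and DGAT2, which makes triglycerides, went from 1.56 ± 0.189 to 2.82 ± 0.398 FPKM. Solute carriers kept close to the background: of 247 tested (8.097% called) 17 rose and 3 fell (12 and 2 in every setting). SLC25A22, a mitochondrial glutamate carrier, was at 7.81 ± 1.15 to 13.9 ± 1.25 FPKM and SLC41A1, a magnesium transporter, at 11.3 ± 1.53 to 16.7 ± 1.52 FPKM.

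**Figure D5:**
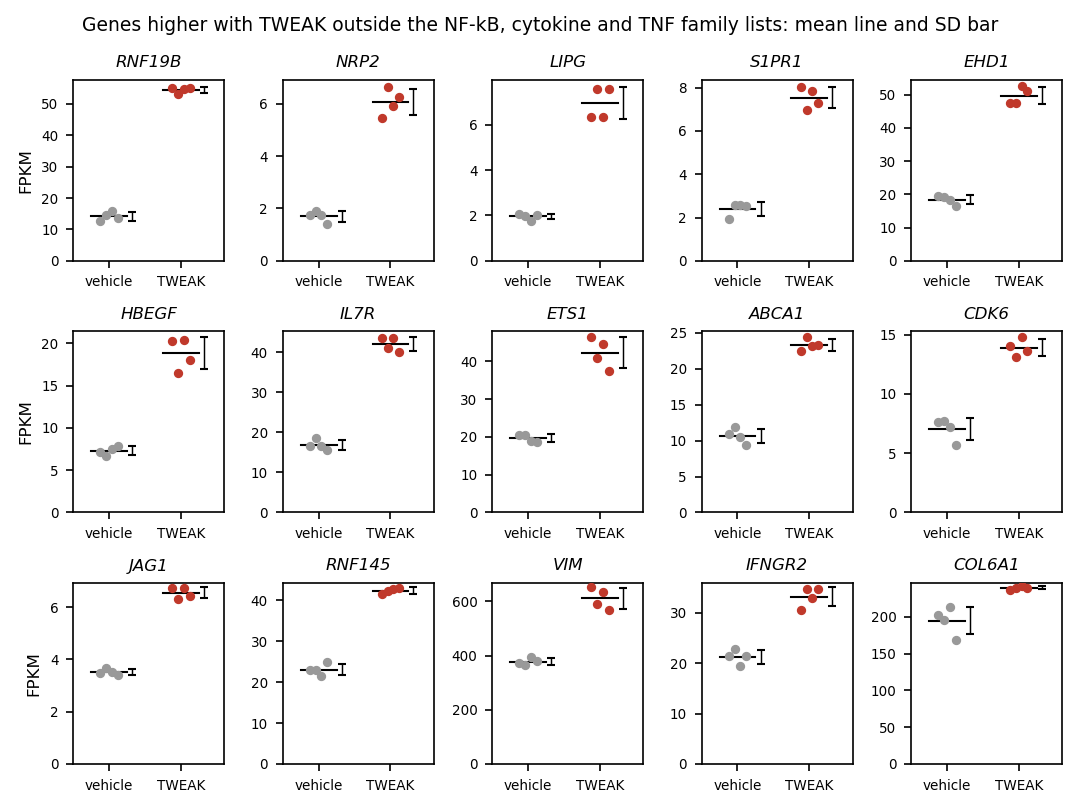
FPKM of 15 genes that rose and are outside the NF-kB, cytokine and TNF family lists, with 1 point per library (4 vehicle in grey, 4 TWEAK in red), a line at the mean, a bar for the SD and an own linear axis from 0 for each gene. In each panel all TWEAK libraries lie above all vehicle libraries, from a log2 fold change of 2.00 (RNF19B) to 0.36 (COL6A1). The rule for named genes required this, except for IFNGR2, which was named after its values were seen. By FPKM 5.74% of all genes tested lay so.

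Some small increases had a small adjusted p as well. The genes here were taken for the smallest adjusted p among changes under 0.5 kept in every setting, so their p is not a further result. In the 0.25 to 0.5 band, only 192 of 354 increases and 43 of 169 decreases kept their call in every setting. RCC2, a chromosome condensation factor, read 37.8, 37.9, 35.9 and 34.3 FPKM with vehicle and 48.7, 47.6, 49.8 and 49.1 FPKM with TWEAK. A rise of 0.48 ± 0.05 had an edgeR adjusted p of 7.00e-07, since the spread within each group was small. TRIM8 read 21.1, 20.7, 22.6 and 20.4 FPKM with vehicle and 27.9, 27.8, 29.7 and 29.1 FPKM with TWEAK (0.49 ± 0.06, edgeR adjusted p = 1.49e-06). KDM2A, a histone demethylase, rose by 0.49 ± 0.06, DLC1, a GTPase-activating protein gene, by 0.48 ± 0.07, TGIF2, a repressor of TGF-beta signals, by 0.47 ± 0.07, and DRAM1, a lysosomal regulator of autophagy, by 0.47 ± 0.06. PLK2, LMO4, RFTN1 and UBQLN2 rose by 0.41 to 0.44.

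Noncoding RNAs made up 33 of the genes that rose (4.269%) and 21 of those that fell (6.402%), against 1790 of all genes tested (11.17%). Whether their level of expression bears on these shares was not tested. MIR34AHG, the host transcript of miR-34a, read 2.45, 1.9, 2.57 and 2.36 FPKM with vehicle and 5.82, 5.05, 5.86 and 5.42 FPKM with TWEAK (1.32 ± 0.11, edgeR adjusted p = 4.19e-09). MIR23AHG, which spans the miR-23a, miR-27a and miR-24 genes, was called higher by 0.52 ± 0.13, but its gene overlaps that of ZSWIM4 on the other strand, which rose by 1.24 ± 0.17, and the reads of the pair cannot be told apart. MIR503HG fell by 0.40 on the log2 scale (SE 0.10, edgeR adjusted p = 0.0114). MIR23AHG is named after its value was seen. Poly(A) libraries measure these host transcripts and not the mature microRNAs. The guide strands within them are printed to show what each host could supply, 5′ to 3′ from RefSeq on GRCh38.p14, with the seed (bases 2 to 8) in capitals.
hsa-miR-34a-5p, in MIR34AHG: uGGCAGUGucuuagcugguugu
hsa-miR-23a-3p, in MIR23AHG: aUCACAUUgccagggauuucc
hsa-miR-27a-3p, in MIR23AHG: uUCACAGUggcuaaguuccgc
hsa-miR-24-3p, in MIR23AHG: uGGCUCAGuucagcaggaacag
hsa-miR-503-5p, in MIR503HG: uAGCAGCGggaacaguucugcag
No pair of these 5 shares a seed. The host transcript of miR-155, a known NF-kB target in leukocytes, did not pass (MIR155HG, 0.20 ± 0.14, edgeR adjusted p = 0.453).

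Several changed RNAs lie beside or across another changed gene. Among genes called in every setting, 11 pairs lay within 1000 bases of each other or overlapped. Both members went the same way in all 11, which is not read as a result, since 504 of the 619 genes rose and overlapping genes may share reads. NAV2-AS6, inside NAV2 on the other strand, read 4.32, 3.51, 4.73 and 3.99 FPKM with vehicle and 9.72, 10.3, 10.7 and 12.1 FPKM with TWEAK, and NAV2 rose by 1.06 ± 0.13. FMNL1-DT, which overlaps FMNL1 on the other strand, went from 1.73 ± 0.145 to 4.33 ± 0.625 FPKM. LINC00944 rose by 0.98 ± 0.16 and LINC00943, which overlaps it on the other strand, by 1.68 ± 0.13. LINC00943 averaged only 0.54 FPKM with vehicle and is named after its value was seen. FAS, a death receptor, and STAMBPL1 overlap on 1 strand, and FAS rose by 1.12 ± 0.10. The sources used here do not state whether the counts used strand, so reads of overlapping partners cannot be told apart. TRIM8-DT and TRIM8, whose genes do not overlap (339 bases apart), rose by 0.51 ± 0.11 and 0.49 ± 0.06.

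Some programmes gave few or no increases at 2 h, beside 4.82% of all genes tested that rose. Lists of 38 or 39 genes would hold few increases at that share too, so such counts are not read as a result. Of 38 NRF2 and redox genes none rose by edgeR (3 were higher at an unadjusted p under 0.05, and 2 and 1 were called by DESeq2 and limma voom) and 3 fell, none in every setting. The median of that list was −0.13, and 7.895% of it was called, against 6.87% of all genes tested. Of 39 genes of ATF4, the unfolded protein response and heat shock 1 rose (2.564% called). It was ATF5, by 0.28 ± 0.07, and its gene overlaps that of IL4I1, which rose by 1.36 ± 0.19. None of 79 ribosomal protein genes was called by edgeR, DESeq2 or limma voom, with 5 lower at an unadjusted p under 0.05 and a median of −0.11, or −0.04 without vehicle replicate 4. TNFRSF12A, the receptor gene, read 131, 133, 129 and 119 FPKM with vehicle and 123, 129, 129 and 140.1 FPKM with TWEAK, and the groups overlapped (0.08 ± 0.07, edgeR adjusted p = 0.564). The ligand gene TNFSF12 gave 4.99 ± 0.345 to 5.01 ± 0.502 FPKM (0.06 ± 0.09, edgeR adjusted p = 0.757).

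Levels of the same genes in the knockout lines, which were given no TWEAK, are set beside those with vehicle as values with no test, since they share the vehicle libraries with the comparison above. FST was at 15.5 ± 2.26 FPKM with vehicle, 6.11 ± 0.71 with TWEAK, 10 ± 0.794 without Fn14alpha and 3.17 ± 0.513 without Fn14. NR2F2 was at 23.2 ± 1.45 FPKM with vehicle, 13.7 ± 2.03 with TWEAK, 30.3 ± 2.64 without Fn14alpha and 41.8 ± 3.197 without Fn14. STC2 was at 10.4 ± 0.588 FPKM with vehicle, 6.07 ± 0.521 with TWEAK, 16.8 ± 1.03 without Fn14alpha and 17.5 ± 0.2597 without Fn14. Genes that fell with TWEAK thus had no common direction in the knockout lines. With vehicle, without Fn14alpha and without Fn14, STC1 averaged 15.07, 3.02 and 4.6 FPKM and BDKRB2 2.65, 1.22 and 0.405 FPKM. In the same order NR2F1 averaged 9.23, 27.1 and 32.6 FPKM and DNAJB4 25.8, 38.4 and 65 FPKM. The genes in this paragraph are a few of those named. EHD1 was at 18.5 ± 1.28 FPKM with vehicle, 49.7 ± 2.57 with TWEAK, 16.7 ± 1.13 without Fn14alpha and 18.1 ± 0.8897 without Fn14, RNF19B at 14.2 ± 1.33 FPKM with vehicle, 54.4 ± 0.988 with TWEAK, 14.97 ± 0.355 without Fn14alpha and 7.41 ± 0.364 without Fn14 and S1PR1 at 2.41 ± 0.326 FPKM with vehicle, 7.53 ± 0.494 with TWEAK, 3.14 ± 0.281 without Fn14alpha and 1.02 ± 0.135 without Fn14.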

How the data were processed

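Gene counts of 8 wild-type LX-2 libraries were compared, with the 8 knockout libraries sharing the filter, the scaling and the estimate of the spread. Per the labels' protocols, libraries were made from oligo(dT)-selected mRNA with random primers. The deposited table gives raw counts per gene with no normalization. The submitters' processing notes name HTSeq 0.6.1, HISAT2 2.0.1, cutadapt 1.9.1, FastQC 0.10.1, DESeq2 (no version) and the builds hg38 and GRCh38.p13. The strand option, the annotation release and the handling of multi-mapped reads are not given in the labels or headers, so near-identical copies may share reads. Per the file headers the table also holds FPKM values, which the authors' counts, exonic lengths and library totals gave back within 0.005. Exonic lengths and positions per gene are those deposited by the authors. All 16 count columns were used.

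Counts were tested with edgeR 4.0.16 (R 4.3.3) by the two-sided quasi-likelihood test after TMM scaling and filterByExpr by group, with 1 mean per group and robust estimates. All 16 libraries entered the fit. It tested 16029 genes at a common dispersion of 0.0075. Calls were made at a Benjamini-Hochberg adjusted p under 0.05 over those genes. Errors given after ± are the SE of a log2 fold change (from its F statistic) or, with FPKM, the SD of 4 libraries. Fold changes come from the fit and can differ from ratios of FPKM, which are scaled to library totals. Replicate pairs differed by more than sampling noise (chi-square per degree of freedom 2.3 to 22.4 with vehicle and 4.16 to 10.7 with TWEAK, over genes with at least 100 counts), so each library was counted once. The test was checked on simulated data.

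Alternatives for the scaling were library totals and DESeq2 1.42.0 size factors. Those for the filter were no filter and 1 CPM in 4 libraries, and those for the test were the DESeq2 Wald test and limma 3.58.1 voom. Others were the 8 wild-type libraries alone, the replicate number as a block, and each of these 8 libraries left out in turn. Gene biotypes are those of GENCODE 29, matched by identifier for 58254 genes. Figures were drawn with Python 3.11.15 and matplotlib 3.10.9. The gene lists and members were chosen with earlier results of these data known, and several lists share members. The rule for named genes required a call kept in all 16 alternatives, groups apart by FPKM and a mean of at least 2 FPKM in 1 group. Of these it took the 25 largest increases outside the NF-kB, cytokine and TNF family lists, the 30 largest decreases, the 12 in each direction with the smallest adjusted p among changes of 0.5 to 1 and the 10 in each direction under 0.5. It also took up to 5 per list, 6 noncoding genes in each direction, TNFRSF12A and TNFSF12, 198 in all, of which the text gives a part. FAS, NAV2 and the genes with promoter matches were also named after their values were seen. A few genes and 1 gene list are not reported here.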

Additional observations from a re-analysis of the deposited data

Results flagged for a closer look

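In a group of 4 libraries a value was singled out when its gap to the nearest other value took a larger part of the group's range than Dixon's critical value for 4 values. Chance alone singles out about 1 in 20 groups. Over the 151 genes named in the text this held for 21 of 302 groups, and in 8 of the 21 the library was vehicle replicate 4. In FPKM, vehicle replicate 4 stood above the other 3 vehicle libraries for CCN1 (168 against 149.7 to 152), CDKN2C (31.6 against 27.2 to 27.9), LRRC17 (59.8 against 50.3 to 51.9) and STAMBPL1 (1.41 against 1.10 to 1.14). It stood below them for HIVEP1 (0.70 against 0.96 to 0.97), NEDD4L (2.85 against 3.24 to 3.31), SLC41A1 (8.97 against 11.9 to 12.1) and TICAM1 (3.60 against 4.02 to 4.10). Vehicle replicate 3 was the high value for ATF5 (29.6 against 26.2 to 26.5) and LMO4 (8.46 against 8.19 to 8.22). The low value came from vehicle replicate 3 for SYTL2 (2.51 against 2.74 to 2.76) and UBQLN2 (19.2 against 19.5). The low value came from vehicle replicate 1 for S1PR1 (1.92 against 2.53 to 2.60). The low value came from TWEAK replicate 1 for HIVEP1 (1.28 against 1.68 to 1.75) and TRIM8-DT (8.43 against 8.78 to 8.85). TWEAK replicate 2 was the high value for CD47 (17.1 against 16.4 to 16.5) and RAB27B (1.51 against 1.28 to 1.31). TWEAK replicate 3 was the high value for NOCT (8.24 against 6.92 to 7.10) and SLC25A22 (15.8 against 13.2 to 13.4). The low value came from TWEAK replicate 3 for BHLHE40 (18.6 against 19.6 to 19.8) and FAS (0.89 against 1.11 to 1.15). Each of these genes rose or fell with TWEAK by the same call without the library in question.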

How the results depend on the processing

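Of the counts of genes called (all, higher, lower, and at least 1 in size on the log2 scale), those lower left their 1.5-fold range in 2 settings: 750 genes were called lower with library totals as scaling and 183 without TWEAK replicate 3, against 328. The cause was not tested. Leaving out 1 wild-type library gave 759 to 973 genes called, 576 to 723 higher, 183 to 261 lower and 131 to 161 of at least 1 in size. With no filter on low counts 1233 genes were called among 37059, and DESeq2 called 1324. With the replicate number as a block, 893 genes were called, 663 higher and 230 lower. The numbers were not taken to pair the libraries, since the correlations of the deviations of same-numbered vehicle and TWEAK libraries were −0.075, −0.00114, 0.0321 and −0.0193. A setting chosen after seeing the data left out vehicle replicate 4 and Fn14 knockout replicate 1 together and gave 923 genes higher and 430 lower. Among the 151 genes named, none changed direction in any of the 17 settings, and calls were lost in 8 of 2567 gene and setting pairs, all in AGTR1 and KITLG (for KITLG also with the block). Depth limits the low genes: FPKM of under 1 rest on few counts unless the exons are long, as in FAS with 29313 exonic bases. No gene with 0 counts in a group is described.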
